A study of Mus musculus with 14 samples.

Results

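The tumours described are the 4 taken on day 27 of PLX4032 treatment, of 14 tumours in all. They were chosen by their labels alone and were set against the 4 control tumours, 2 from day 3 and 2 from day 6. All tumours grew from SMM102, a mouse melanoma line, after subcutaneous injection at 2 sites per mouse. The hosts were female C57BL/6J mice aged 6 to 8 weeks. Dosing began when tumours measured 150 to 300 mm3, and PLX4032 was given into the peritoneum at 50 mg/kg on 5 days per week. The other treated tumours, 2 each from days 3, 6 and 18, are used only where day 27 is set beside them.

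The day 27 tumours are the left and right tumours of 2 mice, and the table does not show which tumours share a mouse, so p-values that treat them as 4 samples are too small. The design text speaks of vehicle for the control mice, while the sample labels call the same tumours untreated. No control was taken on day 27, so treatment and the age of the tumour cannot be told apart in any difference below. SMM102 is a single line, and each sample is RNA from whole tumour, so melanoma cells and the cells of the host are measured together.

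BRAF is a kinase that RAS proteins switch on. It activates MEK and then ERK, and ERK drives a set of growth genes as well as phosphatases and other inhibitors that dampen the same route. PLX4032, also called vemurafenib, blocks mutant BRAF and is used against melanoma, where tumours often regrow during treatment. Known routes of such regrowth include extra copies or altered forms of BRAF, RAS mutations and signals from receptor kinases such as MET, EGFR and the PDGF receptors.

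Of 15841 genes tested on the log2(signal + 1) scale, 1056 differed between day 27 tumours and controls at an adjusted p under 0.05 (6.67%). Of these, 567 were higher (3.58%) and 489 lower (3.09%), so that 53.7% of calls were higher, and 74.3% of 1184 calls when each column was rescaled to the same sum. All changes below are differences of means on this log2 scale, which understates the change of low genes, and "rose" or "fell" is used for genes past that threshold. The day 27 tumours resembled each other closely, with pairwise correlations of log2 values across genes of 0.981 to 0.99. Between day 27 and control tumours these correlations were 0.96 to 0.974, overlapping the 0.962 to 0.984 among the controls themselves. They were 0.86 to 0.909 between day 27 and day 3 tumours, 0.928 to 0.969 with day 6 and 0.94 to 0.95 with day 18. Between the 2 groups of controls, limma called 0 genes, while 886 had an unadjusted p under 0.05.

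Chromosome 6 stood apart from all other chromosomes in the day 27 tumours. Of 823 chromosome 6 genes tested, 213 rose (25.9%) and 15 fell (1.82%). On the remaining chromosomes 828 of 15018 genes were called (5.51%), of which 354 rose (2.36%) and 474 fell (3.16%). This balance turned with the scaling: 42.8% of these calls were higher, but 613 of 908 (67.5%) with each column rescaled to the same sum, and chromosome 6 calls were then 96.7% higher, beside 93.4%. Among the 570 chromosome 6 genes with a mean signal of 5 or more, the median change was 0.34 and 84.7% of genes were above 0. The medians of the other chromosomes lay between -0.01 and 0.07, except chromosome 19 at -0.19.

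Each day 27 tumour showed the chromosome 6 shift by itself. The median of chromosome 6 minus that of the remaining genes was 0.281, 0.310, 0.329 and 0.359 in tumours 1 to 4. In the controls this difference ran from -0.008 to 0.008, far below every day 27 tumour. Each gene was first set against the mean of these same 4 controls, so their values lie near 0 by construction, here and below. The day 18 tumours, at 0.084 and 0.148, lay between the controls and day 27, and the day 3 and day 6 tumours did not exceed 0.036. The difference is a description, because the chromosome was singled out with results of these data known.

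**Figure D1:**
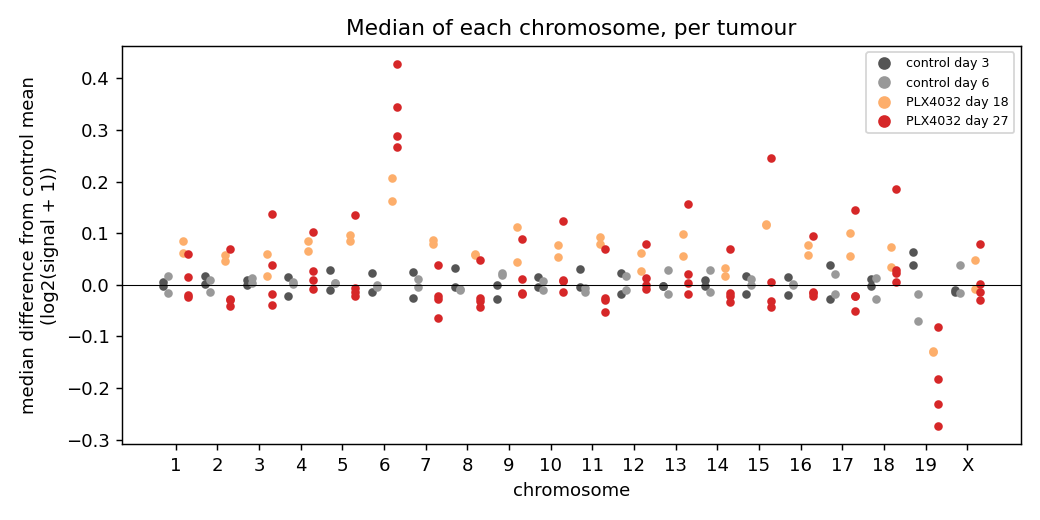
Median difference from the control mean, on the log2(signal + 1) scale, of the genes of each chromosome with a mean signal of 5 or more. Each point is 1 tumour. The 4 day 27 tumours (red) lie highest on chromosome 6, at 0.268 to 0.428, and below 0 on chromosome 19.

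The shift ran along the whole chromosome. In 15 consecutive windows of 10 Mb, the median change at day 27 was between 0.26 and 0.47, and the 4 tumours were above 0 in every window. The highest window, number 7 from 60 to 70 Mb, held 10 genes with a mean signal of 5 or more. The window with the lowest median, number 13 from 120 to 130 Mb, held 89. No window returned to the level of the controls, whose tumours lay between -0.14 and 0.11 across windows.

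**Figure D2:**
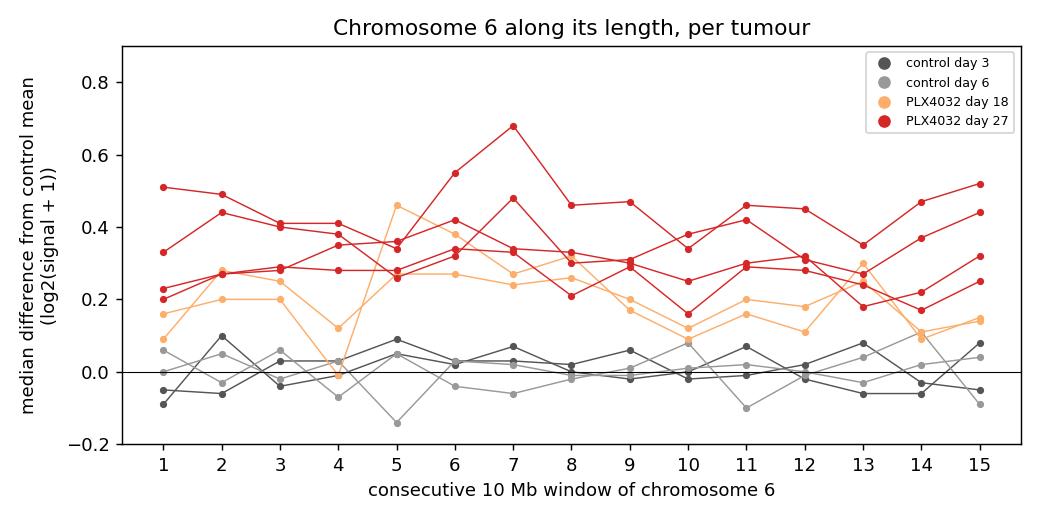
Median difference from the control mean, on the log2(signal + 1) scale, in 15 consecutive 10 Mb windows of chromosome 6, with 1 line per tumour. The day 27 lines (red) stay above 0 from the first window to the last, between 0.16 and 0.68, while the control lines run around 0.

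Chromosome 6 carries Braf and Met. Braf encodes the kinase that PLX4032 targets (GRCm38, chr6:39603237-39725463, minus strand). Its signal was 5.55 and 5.68 in the day 3 controls, 5.20 and 5.99 in the day 6 controls, and 6.56, 7.74, 8.51 and 8.59 in day 27 tumours 1 to 4. All 4 day 27 tumours were above all controls, as for 7.33% of all genes tested and 37.7% of those on chromosome 6. Among chromosome 6 genes with a mean signal of 5 or more, the quartiles of the change were 0.138 and 0.49. The change of Braf lay between them, at 0.42 ± 0.11 on the log2 scale (SE, adjusted p = 0.0442). This call is close to the threshold and was lost in 16 of 25 alternative settings, with adjusted p between 0.0309 and 0.16. At day 18 Braf was at 5.35 and 5.95, within the range of the controls.

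Met, the receptor for hepatocyte growth factor, changed more than the chromosome as a whole. Its signal was 18.2 and 17.2 in the day 3 controls, 24.1 and 25.5 in the day 6 controls, and 41.2, 40.6, 47.7 and 44.4 at day 27. The rise of 1.01 ± 0.10 (adjusted p = 0.00145) passed in all 25 alternatives. Day 18 tumours, at 31.3 and 40.2, were already above the controls, and Met did not differ between day 27 and day 18 by the test (0.28 ± 0.13, adjusted p = 0.181). Against day 3 tumours, which had 11.3 and 8.62, Met was higher by 2.03 ± 0.13 (adjusted p = 7.2e-06).

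Of 27 tested genes of the RAS, RAF, MEK and ERK cascade, 4 rose and 0 fell (14.8%, where 3.58% of all genes tested rose). The list's median change was 0.04, beside 0.01 for all genes tested. With the chromosome 6 genes set aside, 2 of 24 rose. These were Rasa1, which encodes an inhibitor of RAS, from 38.2 to 44.6 in controls to 50.9 to 56.0 (0.34 ± 0.07, adjusted p = 0.014), and Rasgrp3, an activator of RAS family proteins, which stayed low at 1.83 to 3.01 (0.68 ± 0.16, adjusted p = 0.0329), a call lost in 11 of 24 alternatives. Araf, Nras, Map2k1 (encoding MEK1) and Nf1 (a RAS inhibitor) had changes between -0.05 and 0.11 with adjusted p of 0.58 or more.

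**Figure D3:**
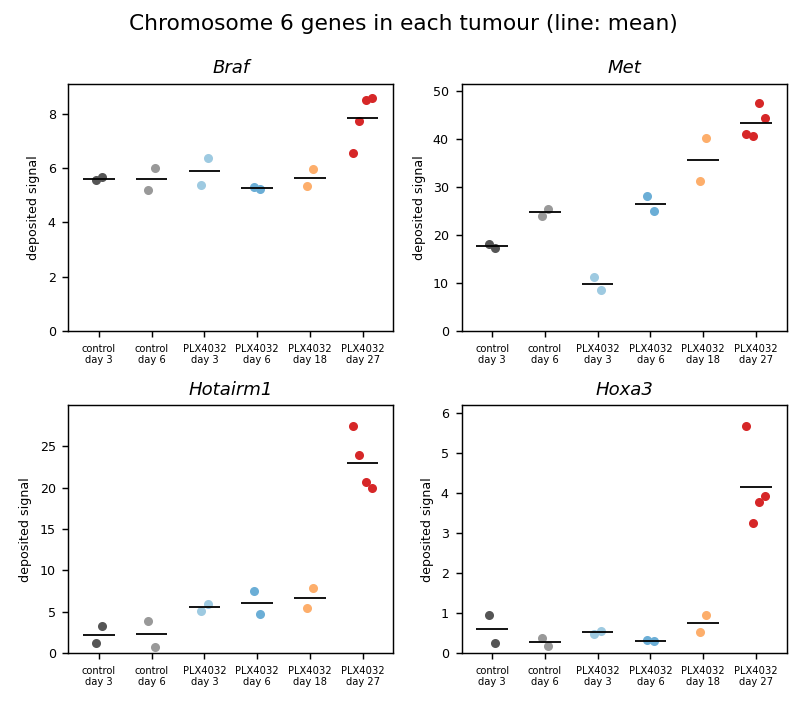
Deposited signal of 4 chromosome 6 genes in every tumour, with each group's mean as a line and a vertical axis from 0. In Braf, Met, Hotairm1 and Hoxa3 all 4 day 27 tumours lie above all 4 controls.

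The largest rise named on chromosome 6 lay in the HoxA cluster, a row of developmental transcription factor genes. Hotairm1, a long noncoding RNA of the cluster (chr6:52156902-52162119, plus strand), was at 1.15 and 3.31 in the day 3 controls, 3.82 and 0.723 in the day 6 controls, and 27.4, 24.0, 20.6 and 19.9 at day 27. No other tumour of the series exceeded 7.85, and its rise of 3.01 ± 0.32 (adjusted p = 0.0015) was the largest of any named chromosome 6 gene. Hoxa3 (chr6:52169062-52213336) was below 1 in all controls and at 5.68, 3.24, 3.78 and 3.92 at day 27 (1.85 ± 0.18, adjusted p = 0.00116). Both genes were also above the day 18 tumours, Hotairm1 by 1.65 ± 0.39 (adjusted p = 0.025) and Hoxa3 by 1.55 (adjusted p = 0.00155).

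The HoxA list, which also holds the neighbours Skap2 and Snx10, has 18 names, of which 11 are in the table and 9 passed the filter on low values. Of these 9, 7 rose and 0 fell, a description only, because several passed the filter through the treated tumours where they were higher. With a filter of 5 or more in at least 2 columns 2 rose. Hoxa9 was under the filter, at 0.0157 to 0.389 at day 27. The other treated tumours were above the controls as well. The difference from the control mean, averaged over the 9 genes, was 0.64 and 0.81 on day 3, 0.32 and 0.37 on day 6, 0.47 and 0.56 on day 18 and 0.97 to 1.27 on day 27. Their summed signal was higher on day 3, at 123 and 142, than on day 27, at 104 to 107, beside 42.4 to 59.6 in controls. Hoxa5 rose by 1.29 from at most 0.442 to at least 1.25. Hoxa2, Hoxa6 and Skap2, named after their values were seen, rose by 0.81, 1.00 and 0.80. Hoxa7 (adjusted p = 0.133) and Snx10 (adjusted p = 0.927) did not pass the test, and these 2 and Hoxa9 are likewise named after their values were seen. All Hox genes named here stayed at a low signal. No source used here states the use of strand, so reads of Hotairm1 and of genes that overlap it could not be told apart.

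Among the other large rises on chromosome 6, Gng11, a G protein gamma subunit, had the smallest spread. It was at 107, 85.1, 132 and 114 in controls and at 307, 342, 364 and 316 at day 27 (1.61 ± 0.11, adjusted p = 1.3e-04). Cxcl12, a chemokine for CXCR4-bearing cells, rose from 64.1 to 357 in controls to 396 to 458 (1.53 ± 0.32, adjusted p = 0.018), with the control day 6 tumour 1 close to the day 27 tumours and the call lost in 8 of 25 alternatives. Clstn3, a synaptic adhesion protein, rose by 1.86 ± 0.30 and Magi1, a junction scaffold, by 1.46 ± 0.19. Asns, which makes asparagine and is an ATF4 target, rose from 21.8 to 62.0 in controls to 68.0 to 108 (1.18 ± 0.23, adjusted p = 0.0149). Grm7, a glutamate receptor, rose by 1.54 and Pbp2 by 1.29, both at low signal. Ggct, an enzyme of glutathione breakdown, rose by 1.35, but its value in tumour 2 was 109 beside 36.2 to 40.0 in the others.

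The 15 chromosome 6 genes that fell went against the direction of the chromosome. Cav1, encoding the main coat protein of caveolae, went from 503, 721, 457 and 730 in controls to 256, 215, 286 and 205 at day 27 (-1.30 ± 0.20, adjusted p = 0.00574). Gpnmb, a glycoprotein of melanosomes and macrophages, changed by -1.61 ± 0.22, from at least 6.33 to at most 2.76 (adjusted p = 0.00349). The changes were -1.13 in Wnt5b, a WNT ligand, -0.97 in Tspan11, a tetraspanin, and -0.95 in Sox5, a transcription factor, calls lost in 4, 12 and 13 of 25 alternatives. Mitf, the master regulator of melanocytes and also on chromosome 6, was at 1.56 to 2.89 beside 2.76 to 4.73 and did not pass the test (-0.59 ± 0.22, adjusted p = 0.145). Cdkn1b, which encodes the CDK inhibitor p27, rose by 0.35 ± 0.09 with overlapping groups (adjusted p = 0.0482), a call lost in 18 of 25 alternatives.

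Off chromosome 6, the largest falls of all were in granzymes, the serine proteases of cytotoxic lymphocytes. Gzmd, Gzme, Gzmf and Gzmg lie side by side on chromosome 14. Gzmg was at 85.1 and 88.0 in the day 3 controls, 129 and 136 in the day 6 controls, and 0.398, 0.198, 0.274 and 0.382 at day 27. All 4 day 27 tumours were below all controls, and 6.43% of all genes tested likewise had no overlap in this direction. The change was -6.37 ± 0.35 (adjusted p = 3.7e-05). The changes of Gzmf, Gzmd and Gzme were -5.46, -5.09 and -4.32, from control signals of 28.5 or more to 2.40 or less. In whole-tumour RNA, fewer cells of a type and less RNA per cell cannot be told apart, here and for each cell type below.

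The neighbouring granzyme genes did not all pass the test. Gzmc, in the same cluster, was at 45.9 to 74.8 in controls and 15.6 to 39.9 at day 27 and did not pass the test (-1.05 ± 0.52, adjusted p = 0.281). Gzmb was at 14.7 to 20.5 and then 6.12 to 12.1 (adjusted p = 0.429). Both groups of Gzmc and of Gzmb were apart, with every day 27 tumour lower, but the fit's standard errors of 0.52 and 0.59 were large. Gzma fell from 4.59 to 18.2 to 0.625 to 1.49 (-2.38 ± 0.54, adjusted p = 0.0273, a call lost in 12 of 25 alternatives), and Prf1, the pore-forming perforin, fell by 1.67 ± 0.42 (adjusted p = 0.0428). Gzmb, Gzmc and Prf1 are named after their values were seen.

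The granzyme fall was already present at day 18. Gzmg was listed at 0 in both day 18 tumours, and Gzmd was at 0.242 and 0.342 there, below all 4 day 27 tumours. None of Gzmd, Gzme, Gzmf and Gzmg differed between day 27 and day 18 by the test (adjusted p of 0.158 to 0.588). At day 3 the same genes were at 51.2 to 655. Granzyme transcripts resemble each other: of the 31-base words in their GENCODE transcripts, 58.7% of those of Gzme, 61.8% of Gzmd, 66.2% of Gzmg, 78.3% of Gzmf and 85.2% of Gzmc occur in no other gene of the granzyme and mast cell protease group. Values of single members are therefore uncertain where reads could have been split among them.

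The 120 bases before the start of 3 of these genes are shown because they are neighbours of 1 family, of which Gzmg and Gzmf fell and Gzmc did not pass the test. Aligned, these stretches were 86.4% identical between Gzmf and Gzmg, 67.9% between Gzmc and Gzmg and 59.3% between Gzmc and Gzmf. Gzmc was 86.3% identical to Gzmd and 85.6% to Gzme, which fell, so identity did not separate Gzmc from the genes that fell. Gaps count as differences in these figures, and the stretches are offset, with the motif below at -77 in Gzmg, -82 in Gzmf and -57 in Gzmc. Capitals mark TGACGTCA, the palindromic CRE motif, which reads the same on both strands. The sequences are from RefSeq on GRCm38.p6, chr14:56159580-56159699 for Gzmg, chr14:56211408-56211527 for Gzmf and chr14:56234658-56234777 for Gzmc, all on the minus strand.
Gzmg: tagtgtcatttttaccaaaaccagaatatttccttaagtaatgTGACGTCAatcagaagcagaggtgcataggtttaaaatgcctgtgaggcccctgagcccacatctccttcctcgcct
Gzmf: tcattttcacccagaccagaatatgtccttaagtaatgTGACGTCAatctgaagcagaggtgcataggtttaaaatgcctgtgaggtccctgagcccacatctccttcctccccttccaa
Gzmc: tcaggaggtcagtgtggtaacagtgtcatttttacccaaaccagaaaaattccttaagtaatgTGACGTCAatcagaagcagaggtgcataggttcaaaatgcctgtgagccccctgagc
The motif was present in these 3 and not in the same window of Gzmd and Gzme, and 1.2% of 32851 promoters of the table held it.

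Over the whole list of NK and cytotoxic genes, 5 of 23 fell and 0 rose, with a median of -0.21, where 3.09% of all genes tested fell and the median of all was 0.01. The 5 are Gzma, Gzmd, Gzme, Gzmf and Prf1. Leaving out any 1 of the 8 tumours left 3 or 4. Of 24 T cell genes, limma called 0, with 1 at an unadjusted p under 0.05, and their summed signal was 145 to 203 in controls and 159 to 246 at day 27. Cd8a, the CD8 chain of cytotoxic T cells, was at 1.29 to 2.21 in controls and at 3.36, 3.16, 3.48 and 1.10 at day 27, with tumour 4 lower than the rest.

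Mast cell genes formed the second steep fall. Mast cells are tissue granulocytes that store proteases and histamine and carry the high-affinity IgE receptor. Of 12 mast cell genes tested, 9 fell and 0 rose (75%, where 3.09% of all genes tested fell), and the median change was -3.02. This held at 8 to 10 genes when any 1 tumour was left out. The summed signal of the list was 254 to 770 in controls and 67.4, 69.1, 91.9 and 115 at day 27, and Gata2, a transcription factor shared by many cell types, was the largest part of what was left, at 54.6 to 70.2.

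Mcpt4, a mast cell chymase, was at 79.6 and 51.8 in the day 3 controls, 115 and 43.9 in the day 6 controls, and 0.895, 1.72, 2.70 and 7.49 at day 27. All day 27 tumours were below all controls, and tumour 4 kept the most (-4.26 ± 0.44, adjusted p = 0.00145). Tpsb2, a tryptase, fell from 38.8 to 274 to 0.750 to 18.8 (-4.05 ± 0.67, adjusted p = 0.00745). The changes were -4.00 in Cma1, another chymase, -3.83 in Cpa3, the mast cell carboxypeptidase, and -3.80 and -3.62 in the proteases Mcpt1 and Mcpt2. Cma1, Mcpt1, Mcpt2 and Mcpt4 lie on chromosome 14 like the granzymes Gzmc to Gzmg, while Cpa3 lies on chromosome 3 and Tpsb2 on chromosome 17. Promoters of Cma1, Mcpt1 and Mcpt4 lie within 55944676 to 56062560, near those of these granzymes at 56120626 to 56234777. Fcer1a, the alpha chain of the IgE receptor, Hdc, which makes histamine, and the tryptase Tpsab1, all named after their values were seen, fell as well, with changes of -2.42, -1.98 and -2.18.

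The 3 mast cell genes that did not pass were Gata2 (-0.11), Kit, the receptor for stem cell factor, at 3.85 to 7.25 beside 3.03 to 13.2 in controls (-0.02), and Ms4a2, the beta chain of the IgE receptor (-1.22, adjusted p = 0.0554), all 3 named after their values were seen. Unlike the granzymes, most mast cell genes were still high at day 18. Mcpt4 was at 42.6 and 55.8 there, within or just under the range of the controls, and the difference of day 27 from day 18 was -3.80 (adjusted p = 0.00161). Cpa3, Cma1, Tpsb2, Fcer1a, Tpsab1 and Hdc were also lower at day 27 than at day 18, with differences of -3.63 to -2.14. Mcpt1 and Mcpt2 were low at day 18 already, at 1.81 to 6.49, and did not differ from day 27 by the test (adjusted p of 0.327 and 0.24).

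**Figure D4:**
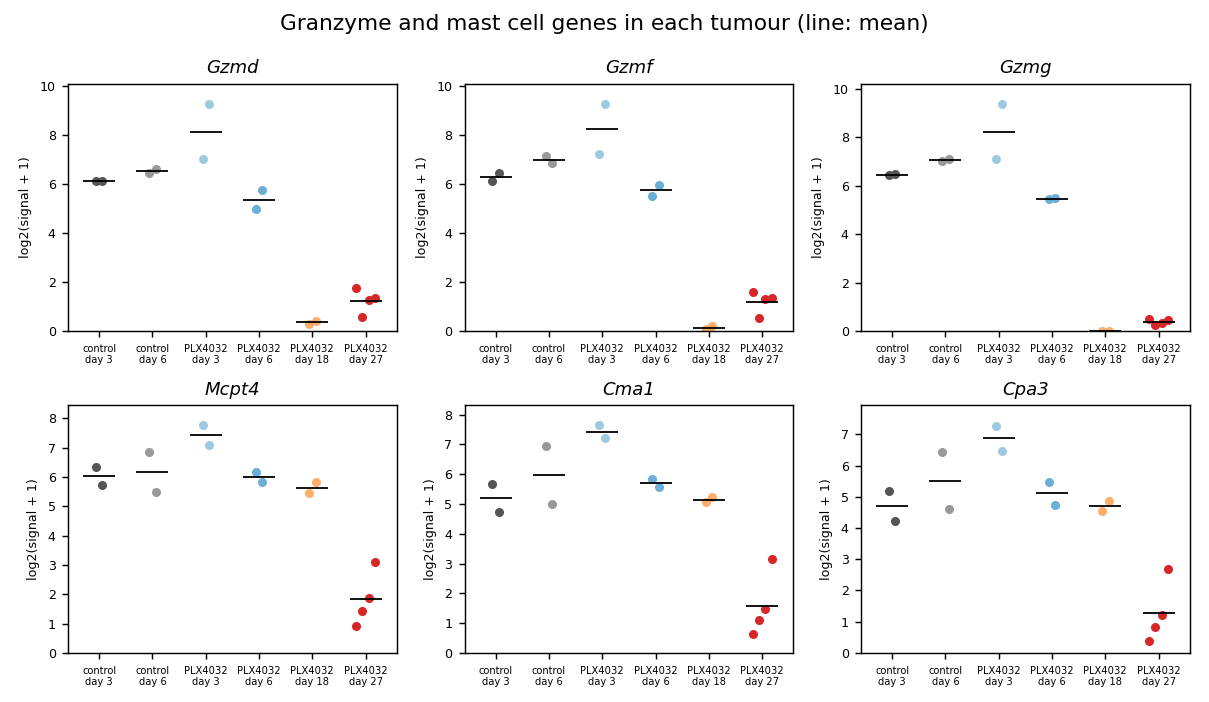
Log2(signal + 1) of 3 granzyme genes (top) and 3 mast cell genes (bottom) in every tumour, with each group's mean as a line. The granzymes are lower in all tumours of days 18 and 27 than in all others. The mast cell genes are lower in all 4 day 27 tumours than in all others, with tumour 4 the highest of the 4.

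The 250 bases before the start of 3 mast cell genes, each on another chromosome, are shown because these genes fell together. Capitals mark GATAA, the core read by GATA factors, or TTATC, the same core on the other strand. The sequences are from RefSeq on GRCm38.p6, chr14:56062311-56062560 for Mcpt4, chr3:20242182-20242431 for Cpa3 and chr1:173227230-173227479 for Fcer1a, all on the minus strand.
Mcpt4: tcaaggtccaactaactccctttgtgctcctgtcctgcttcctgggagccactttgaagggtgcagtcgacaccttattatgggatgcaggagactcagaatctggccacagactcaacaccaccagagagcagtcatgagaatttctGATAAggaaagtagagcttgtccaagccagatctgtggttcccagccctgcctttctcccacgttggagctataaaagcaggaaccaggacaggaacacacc
Cpa3: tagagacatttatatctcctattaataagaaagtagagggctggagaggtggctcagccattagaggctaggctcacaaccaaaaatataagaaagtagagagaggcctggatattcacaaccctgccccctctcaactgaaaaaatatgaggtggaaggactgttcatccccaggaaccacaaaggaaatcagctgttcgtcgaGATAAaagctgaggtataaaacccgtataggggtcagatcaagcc
Fcer1a: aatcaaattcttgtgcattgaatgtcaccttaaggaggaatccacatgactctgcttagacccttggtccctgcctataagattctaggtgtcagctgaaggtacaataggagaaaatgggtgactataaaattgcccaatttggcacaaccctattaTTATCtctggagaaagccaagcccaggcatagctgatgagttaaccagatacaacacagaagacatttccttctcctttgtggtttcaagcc
Of 11 promoters in the table for 9 mast cell genes, 6 held GATAA on either strand in this window, as did 22.6% of all 32851 promoters. A match is a run of letters and does not show that a factor binds.

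In 5 other immune lists limma called 0 genes. An unadjusted p under 0.05 was found for 3 of 28 macrophage and monocyte genes, 2 of 28 interferon response genes, 0 of 18 MHC class I genes, 0 of 12 MHC class II genes and 3 of 19 checkpoint genes. Ptprc, the pan-leukocyte gene encoding CD45, was at 14.1, 14.5, 16.4 and 34.1 at day 27 and at 6.01 to 29.2 in controls. C1qa, a complement gene of macrophages, was at 247 to 439 beside 149 to 576, and Cd274, encoding PD-L1, at 4.18 to 6.25 beside 3.73 to 9.67, so both overlapped the controls widely. Ccl11, the chemokine eotaxin that attracts eosinophils, rose from 5.44 to 12.4 in controls to 44.2, 36.6, 41.1 and 90.8 (2.29 ± 0.38, adjusted p = 0.00745). It was as high or higher at day 18, at 134 and 94.9.

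Of 15 angiogenic factors tested, 3 rose and 0 fell (20%, where 3.58% of all genes tested rose), with a median of 0.09 and 6 of the 15 below 0. The 3 were Apln, Pgf and Cxcl12, the last on chromosome 6. Apln, encoding apelin, a peptide of sprouting endothelial cells, was at 11.0, 13.5, 11.2 and 9.82 in controls and 78.6, 63.1, 64.4 and 39.7 at day 27. The groups were well apart, and the rise of 2.30 ± 0.28 (adjusted p = 0.00254) passed in all 25 alternatives. Pgf, placental growth factor, rose from 2.22 to 3.08 to 16.7, 10.9, 16.2 and 4.53 (1.70 ± 0.37, adjusted p = 0.0227), and its call was lost in 8 of 25 alternatives. Among the other large rises, Esm1, a secreted product of endothelial tip cells, rose by 1.77 ± 0.28, Plxdc1, a receptor of tumour endothelium, by 1.74 ± 0.19, and Prnd, a prion-like protein, by 1.75 ± 0.42, a call lost in 9 of 25 alternatives. Col15a1, a basement membrane collagen, rose by 2.25 ± 0.29 from at most 17.2 to at least 48.9.

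Pericytes wrap small vessels. Of 14 pericyte and smooth muscle genes tested, 5 rose and 0 fell (35.7%, where 3.58% of all genes tested rose). The list's median was 1.14, and 2 of the 5, Kcnj8 and Abcc9, lie on chromosome 6. Abcc9, a subunit of potassium channels, is named after its values were seen. Mcam (CD146) was at 33.2, 27.6, 34.2 and 23.9 in controls and at 89.4, 57.9, 89.0 and 61.3 at day 27 (1.28 ± 0.19, adjusted p = 0.00528). Kcnj8, a potassium channel of pericytes, rose by 1.39 and Higd1b by 1.79, while Tagln, an actin-binding protein of smooth muscle, rose by 2.30 ± 0.48 from 5.45 to 39.4 to 51.0 to 104, a call lost in 9 of 25 alternatives. The count was 10 when control day 6 tumour 1, which had the highest summed signal of these genes among controls, was left out. It was 3 on omitting control day 3 tumour 2 or day 27 tumour 1 or 3.

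Of 19 endothelial genes tested, 10 had an unadjusted p under 0.05, all higher, and the list's median change was 0.51. Averaged over the 19 genes, the difference from the control mean was 0.18 to 0.81 on day 27 and -0.38 to 0.58 in single controls. This average was 0.76 and 1.18 on day 3, 0.06 and 0.17 on day 6, and 0.64 in both day 18 tumours, so high values were not particular to day 27. Past the threshold, 2 rose and 0 fell (10.5%, where 3.58% of all genes tested rose). These were Cdh5, the cadherin of endothelial junctions, from 12.9 to 24.9 to 25.3 to 44.5 (0.96 ± 0.24, adjusted p = 0.0386), and Cldn5, a tight junction claudin (0.97 ± 0.26, adjusted p = 0.0473). These calls were lost in 11 and 15 of 25 alternatives. The count became 9 when control day 6 tumour 1 was left out. On omitting day 27 tumour 2 or 4, 1 gene rose. On omitting any other tumour but these 3, 0 rose, and without control day 6 tumour 2 the 1 gene called was lower at day 27. Tumours 1 and 3 were the highest of day 27 in Cdh5, Mcam, Pgf and Prnd. The same 2 tumours were low in Y-linked genes, with a summed signal of 22.6 and 29.2, beside 46.2 and 46.8 in tumours 2 and 4 and 30.7 to 44.7 in controls. The hosts are female per the labels, and the part of this difference in the vascular values was not tested.

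**Figure D5:**
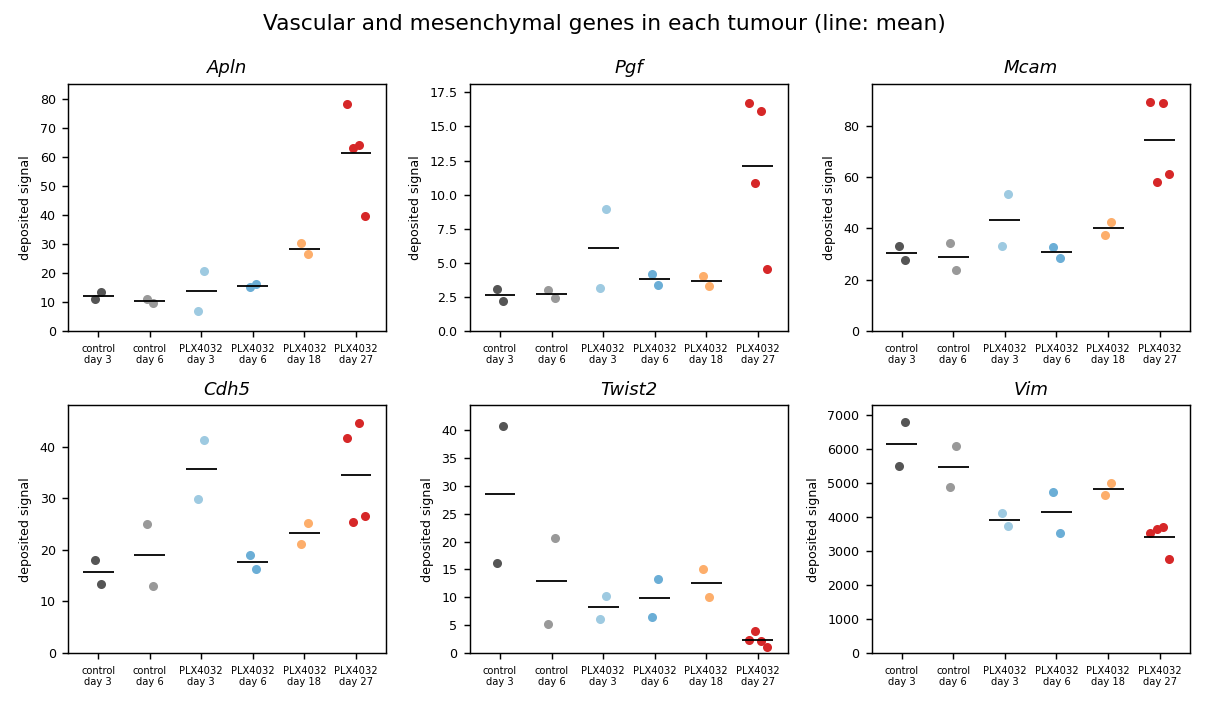
Deposited signal of 4 vascular genes and 2 mesenchymal genes in every tumour, with each group's mean as a line and a vertical axis from 0. Apln, Pgf, Mcam and Cdh5 are higher in all 4 day 27 tumours than in all controls, and Twist2 and Vim are lower.

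Among receptor kinases and their ligands, 2 of 27 off chromosome 6 rose, where 2.36% of all genes off it rose. With Met included, 3 of 28 rose and 0 fell (10.7%, where 3.58% of all genes tested rose), with a median of -0.08. Besides Met these were Pdgfb, the ligand that recruits pericytes, from 4.02 to 7.26 to 10.7 to 18.6 (1.25 ± 0.23, adjusted p = 0.0111), and Egfr. Egfr was at 3.00 to 11.2 in controls and 9.50 to 13.2 at day 27, so the groups overlapped through control day 6 tumour 1, and its call (0.90 ± 0.23, adjusted p = 0.0449) was lost in 13 of 25 alternatives. Pdgfrb, the PDGF receptor of pericytes and fibroblasts, was at 53.2 to 61.4 beside 62.3 to 80.4 and did not pass (-0.35 ± 0.13, adjusted p = 0.151). Axl, a receptor often studied in treated melanoma, was at 324 to 344 beside 341 to 428 (adjusted p = 0.0825). Igfbp3, which binds insulin-like growth factors, is named after its values were seen. It rose from 183 to 411 in controls to 924, 850, 1101 and 888 (1.71 ± 0.20, adjusted p = 0.00212), and no other treated tumour exceeded 246.

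Of 20 genes of the mesenchymal state tested, 5 fell and 1 rose (30% called, beside 6.67% of all genes tested), with a median of -0.28. Twist2, a mesenchymal transcription factor, was at 16.2, 40.8, 5.14 and 20.6 in controls and 2.42, 3.89, 2.11 and 1.10 at day 27 (-2.44 ± 0.44, adjusted p = 0.0105). Vim, the intermediate filament vimentin, fell from 4866 to 6795 to 2769 to 3700 (-0.77 ± 0.15, adjusted p = 0.0148). The changes were -1.39 in S100a4, a calcium-binding protein of motile cells, -0.81 in Loxl2, a collagen cross-linking enzyme, and -0.63 in Fn1, fibronectin. Snai2, a transcription factor of the neural crest, rose by 0.57 ± 0.13. Fn1 and Snai2 are named after their values were seen.

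Of 25 fibroblast and matrix genes, 3 fell and 0 rose (12%, where 3.09% of all genes tested fell), with a median of -0.41. Lum (lumican) fell from 8.45 to 32.1 to 4.73 to 7.10, Dcn (decorin) from 160 to 332 to 103 to 127, and Mmp2, a gelatinase, from 228 to 261 to 157 to 170, a call lost in 10 of 25 alternatives. Col1a1, the main collagen of fibroblasts, was at 302 to 467 beside 361 to 605 and did not pass (adjusted p = 0.553). Plau, the urokinase protease, moved up instead, from 31.3 to 71.4 to 145, 153, 122 and 158 (1.62 ± 0.16, adjusted p = 0.00116), and it was already at 107 and 132 at day 18. Timp2, an inhibitor of matrix proteases, fell by 0.73 ± 0.10.

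Genes that ERK switches on give a readout of the route. Of 27 genes of ERK output and feedback, 0 rose and 1 fell against controls (3.7%), with a median of 0.02. That share is near the 3.09% of all genes tested that fell. The gene that fell was Dusp7, an ERK phosphatase, from 37.7 to 59.2 to 28.8 to 35.0 (-0.58 ± 0.10, adjusted p = 0.0108), a call lost in 4 of 25 alternatives. Dusp6, another ERK phosphatase, was at 112 to 172 in controls and 183, 140, 161 and 224 at day 27 (0.33 ± 0.13, adjusted p = 0.171). The ETS factor Etv4 was at 60.7 to 137 and then 97.9 to 109 (0.17 ± 0.19, adjusted p = 0.668), and cyclin D1 gene Ccnd1 at 331 to 614 and then 431 to 567 (0.03 ± 0.15, adjusted p = 0.945).

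Several of these genes were higher than on day 3 of treatment, a comparison in which 52.0% of all genes tested differed. Etv4 was at 12.6 and 22.2 on day 3, and day 27 was higher by 2.55 ± 0.23 (adjusted p = 2.6e-05). Ccnd1 was higher by 1.87 ± 0.18, Fosl1, an AP-1 subunit, by 1.87 ± 0.27, Hmga1, a chromatin protein, by 2.62 ± 0.21, Etv5 by 1.07 ± 0.15, Spry4, an inhibitor of the route, by 0.99 ± 0.18, and Dusp6 by 0.82 ± 0.16, each with an adjusted p of 0.00163 or less. Fos, an immediate early gene, was at 3.14 to 5.07 at day 27 and 2.97 to 8.91 in controls, beside 37.7 to 150 on days 3 and 18 together. Against day 18, where 10% of genes differed, Etv5 was the 1 of Etv4, Ccnd1, Fosl1, Hmga1, Etv5, Spry4 and Dusp6 that passed, higher by 0.55 ± 0.15 (adjusted p = 0.0405).

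Cell cycle genes showed small differences. Mki67, a marker of cycling cells, was at 46.2 to 55.2 at day 27 and 43.8 to 60.4 in controls (-0.02 ± 0.10, adjusted p = 0.929), and at 14.3 and 15.7 on day 3. Of 25 G2/M genes, 0 rose and 2 fell, Ccnb2 (cyclin B2, -0.46) and Kif11 (a spindle motor, -0.43), with a median of -0.24. The share called, 8%, was near the 6.67% of all genes tested, while 23 of the 25 changes were below 0 and 13 had an unadjusted p under 0.05, all lower. These 2 calls were lost in 14 and 16 of 25 alternatives. Of 24 G1/S genes, 1 rose and 1 fell (8.3% called, near the 6.67% of all genes tested). Mcm2, a helicase subunit encoded on chromosome 6, rose by 0.45, a call lost in 14 of 25 alternatives. Tk1, thymidine kinase, fell by 0.42. Cdk6 (0.10) and Ccnd2 (-0.06) did not pass the test.

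Several further genes off chromosome 6 were among the 12 largest rises. Trp53i11 was at 16.8, 14.8, 40.7 and 21.2 in controls and at 109, 109, 92.4 and 72.5 at day 27 (2.08 ± 0.19, adjusted p = 0.00105), and no other treated tumour exceeded 32.7. Sh3gl3, an endophilin of membrane traffic, rose from 1.35 to 3.96 to 18.8, 18.8, 15.0 and 10.6 (2.17 ± 0.25, adjusted p = 0.00212). Camk1g, a calcium-dependent kinase, rose by 2.11, Platr16, a noncoding RNA, by 2.23 and Begain, a protein of synapses, by 1.97. Sox10, a factor of neural crest, melanocytes and Schwann cells, was below 0.2 in all controls and reached 1.66, 1.31, 2.25 and 0.612 (1.15 ± 0.28, adjusted p = 0.0333), a call lost in 13 of 24 alternatives. Of 17 melanocyte and neural crest genes tested, 2 rose (Met and Sox10) and 1 fell (Gpnmb), with a median of -0.02. The share called was 17.6%, beside 6.67% of all genes tested, and Met and Gpnmb lie on chromosome 6.

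Few muscle and fat genes passed the test. Acta1, skeletal muscle actin, was at 111, 85.8, 97.6 and 10.4 in controls and 0.949, 1.09, 0.754 and 7.29 at day 27 (-4.38 ± 1.10, adjusted p = 0.0407), and Tnnc2, a muscle troponin, fell by 3.75 ± 0.92, both calls being lost in 12 of 25 alternatives. Of 20 muscle genes 2 fell (10%), where 3.09% of all genes tested fell. The list's median was -2.13, all 20 changes were below 0, and 17 had an unadjusted p under 0.05, all lower. The number past the threshold was 5 without control day 6 tumour 2, the control with the lowest summed signal. It was 1 without day 27 tumour 4 and 0 without any other tumour. It was 11 when the 8 compared columns alone were fitted, and 0 with control day 6 only or with tumours averaged as 2 mice. In 13 of the 20 genes all day 27 tumours were below all controls, as for 6.43% of all genes tested. The summed signal of the list was 31.2 to 55.8 at day 27 and 82.8 to 476 in controls, and it varied from 81.3 to 2536 between the 2 day 18 tumours. Of 15 fat cell genes 2 fell (13.3%), Cd36, a fatty acid transporter (-1.66), and Pnpla2, a lipase (-0.49), calls lost in 9 and 13 of 25 alternatives. The median of the fat cell list was -0.42, and 6 of the 15 had an unadjusted p under 0.05, all lower. Adipoq, encoding adiponectin, did not pass the test (-1.22, adjusted p = 0.124). It was listed at 0.306 to 3.70 in controls and at 0 to 0.0827 at day 27, values too low to read without counts.

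Chromosome 19 shifted the other way from chromosome 6 and was singled out after the medians were seen. Of 509 genes tested there, 71 fell (13.9%) and 4 rose, and 17.8% of genes with a mean signal of 5 or more were above 0. The median of chromosome 19 minus the rest was -0.168 to -0.252 in the 4 day 27 tumours and -0.066 to 0.049 in controls. It was of similar size in the other treated tumours, from -0.12 on day 3 to -0.209 on day 18. Fas, a death receptor gene on this chromosome, fell from 4.39 to 7.01 to 2.46 to 3.28 (-0.76 ± 0.20, adjusted p = 0.0439), and Bad, a BCL2 family member there, fell by 0.39. Both calls were lost in 14 of 25 alternatives, and the chromosome's median of -0.19 became -0.105 with columns rescaled to the same sum.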

How the data were processed

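Whole tumours were extracted with Trizol and sequenced after TruSeq library preparation, per the labels' protocols. The authors deposited a single table holding an expression signal for each gene, corrected for length, with column sums of 879385 to 1084401. Abundances per gene of this kind normally sum to the same total in each column, so a further scaling was applied that no source used here describes. Per the submitters' processing notes the tools were kallisto and sleuth and the build mm10. Depth is unknown without counts, so no counting interval is given, and a listed 0 can be a failed estimate.

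Genes at 1 or more in at least 2 columns were tested as log2(signal + 1). The model was limma 3.58.1 (R 4.3.3), with 6 group means over 14 columns, a variance trend and 8 residual degrees of freedom. Tests were 2-sided, p-values were adjusted by Benjamini-Hochberg over 15841 genes, and the threshold was 0.05. Day 27 was set against the mean of both control groups. The script was tested on simulated data. Positions are from GENCODE M21 (GRCm38, the assembly of mm10) and matched 18136 of 18481 symbols (98.1%). Promoters are from RefSeq, and figures were drawn with matplotlib 3.10.9.

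Members, the 40 gene lists and tests were chosen with earlier results of these data known. The rule for naming took genes past the threshold, with groups apart and the higher group's mean at 5 or above. It took the 12 largest rises and falls off chromosome 6 and 10 rises and 5 falls on it, leaving out predicted genes, pseudogenes and receptor segments, plus up to 4 genes of smallest p per list and 33 fixed genes. Others are said to be named after their values were seen. Alternatives changed the pseudocount, filter, scaling, fit, controls and pairing, and left out each tumour. Some genes of the lists are not reported here.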

Additional observations from a re-analysis of the deposited data

Results flagged for a closer look

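Among the 4 day 27 tumours, 1 tumour lay far from the other 3 in 8 of 84 values examined by Dixon's ratio on the log2 scale. Chance would give about 1 in 20 such values for 4 independent tumours. Here 2 tumours come from each mouse, and many of the genes were named from these same data. The count of 8 therefore cannot be set against that rate. Tumour 4 was the one apart in 5 of them. Its Ptprc signal was 34.11 beside 14.14 to 16.35 in the others, its Acta1 signal 7.289 beside 0.7543 to 1.088, and its Begain signal 9.351 beside 7.776 to 7.959. It was low in Cd8a, at 1.096 beside 3.162 to 3.476, and in Platr16, at 8.914 beside 13.31 to 13.89. Tumour 2 was apart in Ggct, at 108.9 beside 36.24 to 39.98, in Spry4, at 31.2 beside 48.75 to 51.29, and in Higd1b, at 5.234 beside 10.78 to 12.36.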

How the results depend on the processing

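Under 25 alternatives no called change of a named gene and neither the chromosome 6 nor the chromosome 19 median changed sign. Changes near 0 that passed in none did, such as Ptprc (-0.307 to 0.632) and C1qa (-0.215 to 0.758), and so did the median of all genes (-0.008 to 0.085). Of 88 named genes past the threshold, 29 passed under every alternative and 59 lost the call under at least 1. The 1056 genes called became 231 with control day 6 only, 252, 170 and 260 when tumours 1 and 2, 1 and 3, or 1 and 4 were averaged with the remaining pair as 2 mice, and 497 to 1140 with 1 tumour left out. The count was 497 without control day 3 tumour 2, and 511, 606 and 671 without day 27 tumour 1, 2 or 4. For chromosome 6 the 228 calls became 69 with control day 6 only, 138 with control day 3 only, 82, 46 and 84 in the same pairings, and 122 to 186 with 1 tumour left out. Off chromosome 6 the 828 became 162 with control day 6 only, 170, 124 and 176 in the pairings, and 367 to 954 with 1 tumour left out. These settings use fewer tumours. The chromosome 6 median of 0.341 was 0.428 with columns rescaled to the same sum, where the median of all genes moved to 0.085, and 0.288 to 0.366 with 1 tumour left out. List counts, recomputed as an alternative chosen after seeing the data, ran from 6 to 10 for mast cells, 2 to 8 for HoxA, 3 to 6 for cytotoxic genes, 1 to 10 for pericytes, 0 to 9 for endothelium, 0 to 6 for the mesenchymal list, 1 to 6 for the RAS cascade, 0 to 3 for ERK output and 0 to 11 for muscle.

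No paired analysis was possible because the numbers in the column names only name tumours and tie them to no mouse. Depth cannot be read from the table, so low signals such as those of the Hox genes have no counting error.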

Other observations

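A few further genes changed strongly at day 27 and are given as values. Lama5, a laminin chain of basement membranes, was at 37.0, 76.7, 14.2 and 54.7 in controls and 7.22, 1.97, 2.88 and 1.87 at day 27 (-3.29 ± 0.45, adjusted p = 0.00373). Ntn1, the guidance factor netrin 1, went from 29.9 to 128 in controls to 7.27 to 13.1 (-2.71 ± 0.36, adjusted p = 0.00349). Pmp22, a membrane protein of myelin, went from 59.1 to 70.6 in controls to 29.8 to 36.0 (-0.99 ± 0.11, adjusted p = 0.00181). The other treated tumours had Lama5 at 3.54 to 12.1 and Ntn1 at 22.7 to 32.4. In each of the 3 genes all day 27 tumours were below all controls. Lama5 and Ntn1 were chosen after their values were seen.

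Of 20 p53 target genes 2 rose and 1 fell (15% called, beside 6.67% of all genes tested), with a median of 0.04. Those that rose were Gadd45a and Plk2. Gadd45a, a growth arrest gene on chromosome 6, was at a mean of 38.9 ± 10.2 (SD, n = 4) in controls and at 65.0, 87.1, 87.0 and 109 at day 27 (1.15 ± 0.19, adjusted p = 0.00705), while the day 18 tumours had 21.8 and 28.4. Plk2, a stress-induced kinase gene on chromosome 13, was at 9.38 to 36.1 and then 43.9 to 58.9 (1.45 ± 0.27, adjusted p = 0.0111). Of 24 genes of glycolysis and hypoxia 1 rose and 0 fell (4.2%), near the 3.58% of all genes tested that rose. Hk2, a hexokinase of glycolysis on chromosome 6, was at 9.50 to 16.5 and then 20.2 to 26.7 (0.94 ± 0.20, adjusted p = 0.0223), a call lost in 10 of 25 alternatives. Of 22 ATF4 and ER stress genes 3 rose (13.6%, where 3.58% of all genes tested rose), 2 of them on chromosome 6, with a median of 0.18. The other, Phgdh, the first enzyme of serine synthesis, was at 157 to 174 and then 207 to 287 (0.48 ± 0.12, adjusted p = 0.0346), a call lost in 12 of 25 alternatives. Of 23 genes of cholesterol synthesis, limma called 0, with 3 at an unadjusted p under 0.05, although the list's median change was 0.52.

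In the innate immune lists, Cxcl5, a chemokine for neutrophils, was at 0.479 to 6.25 in controls and 0.139 to 0.260 at day 27 (-1.69 ± 0.32, adjusted p = 0.0121). The complement gene C2 was at 11.6 to 18.3 and then 6.66 to 7.88 (-0.93 ± 0.22, adjusted p = 0.0329), a call lost in 12 of 25 alternatives. Adamts4, a protease of proteoglycans, was nearly even across the day 27 tumours, at 23.2 to 24.1, beside 11.7 to 16.7 in controls (0.77 ± 0.11, adjusted p = 0.00379).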
